A study of Homo sapiens with 8 samples.

Results

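The transcripts described here belong to 10 genes that have been linked to the spread of breast cancer to the lung: MMP1, SPARC, TNC, ANGPTL4, CXCL1, EREG, PTGS2, LY6E, IL13RA2 and VCAM1. They were found by mapping the RefSeq accessions of a deposited table of transcript stability to gene symbols and keeping every accession of each gene. This gave 12 accessions of 39745, and 10 genes of the 19465 that could be named. The genes were chosen by name with their log2 stability ratios from this same table already known, so those ratios are given as a description and carry no test.

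The study asked what loss of TARBP2, a double-stranded RNA-binding protein that also works as a partner of Dicer, does to the lifetime of transcripts in MDA-LM2 cells. MDA-LM2 is a derivative of the human breast cancer line MDA-MB-231 that was selected for metastasis to the lung. Total RNA of 8 samples was hybridised to single-colour Illumina BeadChips, in 4 groups of 2 arrays: siTARBP2 cells at 0 h, siTARBP2 cells after 18 h in 10 µM alpha-amanitin, siControl cells at 0 h and siControl cells after 18 h in 10 µM alpha-amanitin. Alpha-amanitin blocks RNA polymerase II, and it was added 48 h after transfection, so the 0 h cells were untreated. In the siTARBP2 groups the arrays carried 2 different siRNAs, 1 array each per time. The titles call the comparison cells siControl whereas the design text calls them mock-transfected, so an effect of carrying any siRNA cannot be told apart from loss of TARBP2. All groups are 1 cell line.

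A transcript's level at any moment is set by how fast it is made and how fast it is lost. When synthesis is blocked, what is left after a fixed time shows the loss alone, and comparing that remainder between knock-down and control cells shows whether the loss became faster or slower. Messages for chemokines, growth factors and inflammatory enzymes, such as CXCL1 and PTGS2, are known to be short-lived in many cells because their 3′ untranslated regions hold AU-rich elements that recruit decay factors. The 10 genes encode proteins that work at successive stages of metastasis: remodelling of matrix and leaky vessels, signals to neighbouring cells, and contact with the cells of the lung.

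Values for named genes came from the authors' deposited table, which holds a single log2 ratio of stability, siTARBP2 over siControl, per accession. A negative ratio means that the transcript was listed as less stable after knock-down. The table has no value per sample, no error and no p-value, and the sources used here do not state its formula. It also calls each accession background or stabilized. The lowest stabilized ratio was 0.32196 and the highest background ratio 0.32189 in the authors' deposited table, which places the limit at a log2 ratio of 0.322, called the upper limit here. For the opposite direction, for which the table has no class, its mirror of 0.8-fold (a log2 ratio of -0.322) is called the lower limit. The deposited array files give no gene names for their probes, so no member's signal, its detection, the level of TARBP2 or the levels of markers of the cell line could be read from them. For TARBP2 itself the authors' deposited table lists log2 stability ratios of -0.12 and 0.12 on 2 accessions, which are not levels and do not check the knock-down.

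Most of the 10 genes stood on the low side of the table. Of the 10, 8 had a mean log2 ratio below 0 and 2 above 0 in the authors' deposited table. Below the lower limit of 0.8-fold were 5 genes, MMP1, LY6E, IL13RA2, SPARC and ANGPTL4, beside 5.39% of all named genes in the authors' deposited table. Above the upper limit were 0 of the 10, beside 8.76% of all named genes in the authors' deposited table. At a milder limit of 1.1-fold and its inverse, 1 gene was above and 7 below, beside 29.4% and 21% of all named genes, and at 1.5-fold 0 were above and 0 below, beside 0.935% and 0.529%, in the authors' deposited table. Because the members were put forward with these values known, their share is not set against those percentages. None of the 12 accessions is classed as stabilized in the authors' deposited table, where that class holds 8.45% of all accessions, and 6 of the 12 lie below the lower limit, beside 6.31% of all accessions. The median over the 10 genes was -0.35 on the log2 scale, or 0.784-fold, against 0.026 over all 19465 genes in the authors' deposited table.

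**Figure D1:**
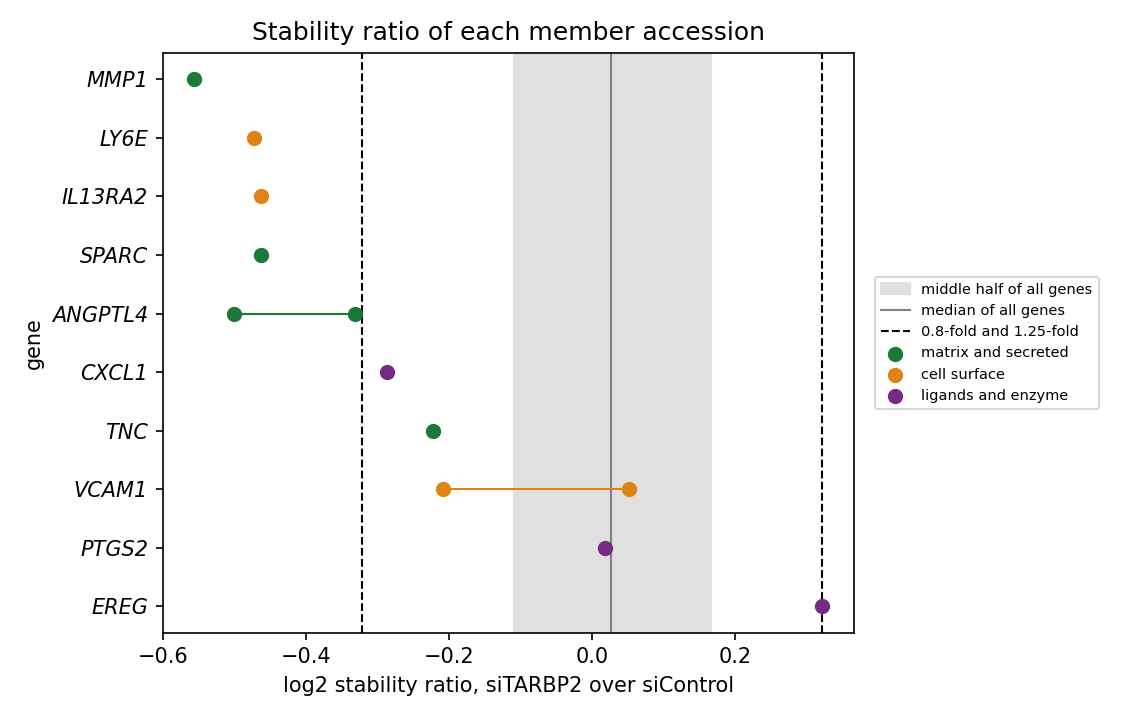
Log2 stability ratio (siTARBP2 over siControl) of each of the 12 accessions in the authors' deposited table, 1 row per gene, coloured by role, with a line joining the 2 accessions of ANGPTL4 and of VCAM1. The shaded band spans the quartiles of all genes (-0.11 to 0.17) and dashed lines mark the lower and upper limits; 5 genes lie left of the lower limit with all their accessions and EREG touches the upper limit.

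Of the 10 genes, those grouped here as matrix and secreted (MMP1, SPARC, ANGPTL4 and TNC) held the lowest value and no positive one. The ligands CXCL1 and EREG, also released from cells, are grouped with the signalling genes, where EREG has a positive ratio. The choice and grouping of members partly fix this order. MMP1, the interstitial collagenase that cuts fibrillar collagen and helps tumour cells to pass through vessel walls, had a log2 ratio of -0.56, or 0.680-fold, on its accession NM_002421 in the authors' deposited table. That is rank 132 from the lowest of 19465 genes, at the 0.678th percentile of the authors' deposited table, and the lowest of the 10 genes. SPARC, a collagen-binding glycoprotein of the matrix that modulates cell adhesion, stood at 0.725-fold (log2 ratio -0.46, NM_003118) in the authors' deposited table. ANGPTL4, a secreted inhibitor of lipoprotein lipase that is known to loosen contacts between lung endothelial cells, had 2 accessions with log2 ratios of -0.50 (NM_001039667) and -0.33 (NM_139314) in the authors' deposited table. Both ANGPTL4 accessions lie below the lower limit, the second only just, at 0.794-fold in the authors' deposited table. TNC, or tenascin-C, a matrix glycoprotein of stem cell niches, came closer to the bulk of genes at 0.857-fold (log2 ratio -0.22, NM_002160) in the authors' deposited table. Only 1 of the 42 RefSeq transcripts now listed for TNC has a value, so its many splice forms are not distinguished.

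The signalling genes were spread widest, from the low flank to the high one. CXCL1, a chemokine that attracts CXCR2-bearing myeloid cells, had a log2 ratio of -0.29, or 0.820-fold, on NM_001511 in the authors' deposited table, short of the 0.8-fold mark. PTGS2, the inducible cyclooxygenase COX-2 that starts prostaglandin synthesis, lay near the middle of all genes, at 1.01-fold (log2 ratio 0.018, NM_000963) and the 48.5th percentile of the authors' deposited table. EREG, or epiregulin, a ligand of the EGF receptor family, was the highest of the 10 genes with a log2 ratio of 0.32 on NM_001432 in the authors' deposited table. EREG is classed as background at 1.249-fold, 0.00059 log2 units short of the upper limit in the authors' deposited table, so its class turns on the exact place of that limit. It stood at percentile 91.2 of named genes in the authors' deposited table. These 3 signalling messages were not listed on one side of 1.

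Among the cell surface proteins, LY6E and IL13RA2 had almost the same low ratio and VCAM1 did not. LY6E, a small GPI-anchored protein of the LY6 family, had a log2 ratio of -0.47, or 0.720-fold, on NM_002346 in the authors' deposited table. IL13RA2, a high-affinity receptor for interleukin-13 that is often described as a decoy, followed at 0.725-fold (log2 ratio -0.46, NM_000640) in the authors' deposited table. The ranks of LY6E and IL13RA2 from the lowest were 269 and 290 of 19465 genes, and SPARC came directly after IL13RA2 at 291 in the authors' deposited table. VCAM1, an adhesion molecule that binds integrins containing the alpha-4 chain on leukocytes, had 2 accessions on opposite sides of 0: 0.051 for NM_001078 and -0.21 for NM_080682, in log2 units in the authors' deposited table. NM_001078 is the full-length form and NM_080682 a splice form that lacks an immunoglobulin domain. Neither VCAM1 accession is past either limit in the authors' deposited table.

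With 1 value per accession, the only spread inside a gene is that between its accessions. Over the 2131 genes with exactly 2 accessions, the difference between the 2 log2 ratios had a median of 0.20, a lower quartile of 0.096, an upper quartile of 0.35 and a 90th percentile of 0.50 in the authors' deposited table. ANGPTL4's difference of 0.17 was wider than that of 43.4% of these genes, and VCAM1's difference of 0.26 wider than that of 60.9%, in the authors' deposited table. Both differences lay between the quartiles of these genes. In the order MMP1, LY6E, IL13RA2, SPARC, ANGPTL4, CXCL1, TNC, VCAM1, PTGS2, EREG, 8 of the 9 steps between neighbours were smaller than the median difference of 0.20, so the place of a gene beside its neighbour in this order is not resolved by that measure. The remaining step, from PTGS2 to EREG, was 0.30 log2 units in the authors' deposited table, still under the upper quartile of 0.35. A difference between accessions is not the error of a single ratio, so no step is called resolved.

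**Figure D2:**
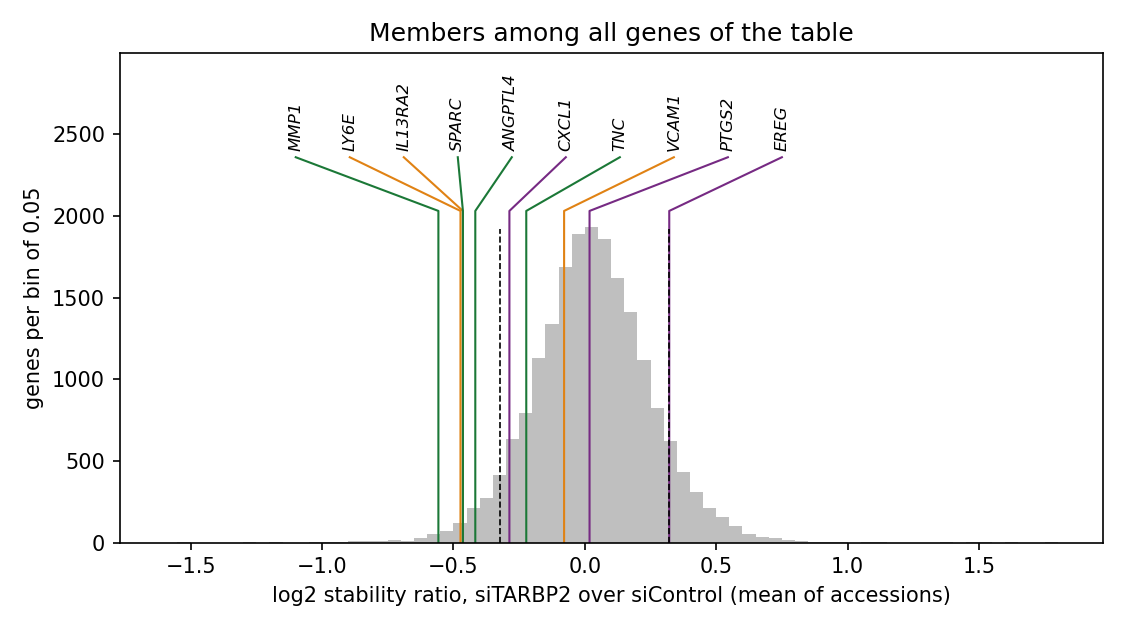
Histogram of the mean log2 stability ratio of all 19465 named genes in bins of 0.05, from the authors' deposited table, with a coloured line at the value of each of the 10 genes and dashed lines at the lower and upper limits. MMP1, LY6E, IL13RA2, SPARC and ANGPTL4 fall in the thin left flank, VCAM1 and PTGS2 near the peak, and EREG on the right flank at the dashed line.

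The 10 genes lay around a lower centre than genes at large, with a wider interquartile range. Their choice, made with these ratios known, partly fixes this, so the counts below are a description only. Their interquartile range was 0.35 log2 units, against 0.28 for all named genes in the authors' deposited table. Of the 10, 7 lay under the lower quartile of all genes (-0.11), 2 between the quartiles and 1 over the upper quartile (0.17) of the authors' deposited table. Under the 5th percentile of all genes, a log2 ratio of -0.33, were 5 of the 10 in the authors' deposited table. None of them came near 2-fold: the full span ran from -0.56 to 0.32 log2 units in the authors' deposited table.

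The arrays give a general idea of how precisely a change in stability could be measured, though not for any member. On the arrays the stability difference is the change of a probe's log2 signal over 18 h in siTARBP2 cells minus that in siControl cells. Its standard error, from the spread between the 2 arrays of each group, had a median of 0.13 log2 units over 18664 detected probes, with quartiles of 0.089 and 0.21. The differences themselves had quartiles of -0.21 and 0.23 over single detected probes, wider than -0.11 and 0.17 over gene means in the authors' deposited table. Those gene means average accessions and have no filter on detection, so the widths are not compared like for like. The scales may also not be the same, so this error cannot be transferred to a listed ratio. Between 15541 and 17619 probes were detected per array of 47321, while the authors' deposited table lists ratios for 39745 accessions. On at least 1 array 19793 probes were detected, and no ratio of the table occurs more than once. The listed ratios therefore outnumber the probes detected on any array. If each ratio rests on its own probe, many rest on probes detected on no array, and the all-gene shares and quartiles include them. Whether the ratio of any member rests on an undetected probe was not tested. Nothing in the labels says that the siControl arrays came from independent experiments, so the spread between arrays may be partly technical. In each siTARBP2 group the 2 arrays carried different siRNAs, so their spread also holds any difference between the siRNAs.

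Promoter sequence was looked up for the members as background, since the stability ratio is taken with transcription blocked and does not measure promoter use. The 100 bases before the start site of 5 members are printed to set genes of low, middle and high ratio side by side, from RefSeq on GRCh38.p14, 5′ to 3′ on the gene's strand. Capitals mark matches, on either strand, to TATAAA, to the NF-kB consensus, to TGANTCA (the AP-1 site) or to CCAAT. A promoter window was found for 7 of the 10 genes.
ANGPTL4 (chr19:8364055-8364154, + strand): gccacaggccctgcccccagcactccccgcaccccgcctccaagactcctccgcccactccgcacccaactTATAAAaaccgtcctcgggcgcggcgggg
SPARC (chr5:151686916-151687015, - strand): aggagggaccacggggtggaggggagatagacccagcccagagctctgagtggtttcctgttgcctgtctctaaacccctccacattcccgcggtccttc
CXCL1 (chr4:73869293-73869392, + strand): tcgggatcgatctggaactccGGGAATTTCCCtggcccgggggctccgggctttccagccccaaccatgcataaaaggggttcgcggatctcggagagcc
VCAM1 (chr1:100719642-100719741, + strand): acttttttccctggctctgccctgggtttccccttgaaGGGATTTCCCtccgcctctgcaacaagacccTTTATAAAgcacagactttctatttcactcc
EREG (chr4:74365045-74365144, + strand): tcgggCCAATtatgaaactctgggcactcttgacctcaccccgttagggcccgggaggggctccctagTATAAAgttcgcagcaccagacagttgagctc

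TATAAA was found in the windows of 4 of these 7 genes, ANGPTL4, EREG, PTGS2 and VCAM1, with the first base of the forward match 29 to 32 bases before the start site, where a TATA box sits. In VCAM1 it overlaps a match on the other strand. Of all 35116 promoter windows of this length, 4.99% hold TATAAA. The NF-kB consensus was found in CXCL1 and VCAM1, and 4.11% of all windows hold it. In CXCL1, 2 overlapping matches lie on opposite strands 1 base apart, which together give the capital run in its sequence. CCAAT was found only in EREG among the 7, and 18.1% of all windows hold it. TGANTCA was found in none of the 7 and in 2.75% of all windows. The windows of SPARC, CXCL1 and TNC hold no TATAAA. No relation between these matches and the ratios is read from 7 genes. These matches are letters in a window, not measured binding.

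Several of the genes sit beside relatives on the chromosome, and the ratios of those neighbours were looked up for each member as the nearest named protein-coding gene on either side. Of the 20 neighbours, 1 was below the lower limit, beside 5.39% of all named genes, in the authors' deposited table. Above the upper limit were 0 of the 20, beside 8.76% of all named genes, in the authors' deposited table. Their log2 ratios had a median of -0.116, under the lower quartile of all genes (-0.109), whose median was 0.026, in the authors' deposited table. MMP1 lies between MMP10 and MMP3, the stromelysins, which had 0.870-fold and 0.813-fold in the authors' deposited table, both lower than 1 but nearer to it than MMP1. CXCL1 is flanked by the platelet factor genes PF4V1 at 0.930-fold and PF4 at 0.865-fold in the authors' deposited table. EREG lies between EPGN (epigen) and AREG (amphiregulin), ligands of the same receptor family, at 0.938-fold and 0.962-fold in the authors' deposited table. So EREG was the only 1 of these 3 adjacent growth factor genes with a ratio above 1. The 1 neighbour below the lower limit was PLA2G4A, beside PTGS2, at 0.613-fold (log2 ratio -0.71) in the authors' deposited table. PLA2G4A encodes the cytosolic phospholipase that releases arachidonic acid, the substrate of the PTGS2 enzyme. Of the 10 members, 7 were lower and 3 higher than both their neighbours in the authors' deposited table, an order that the choice of members partly fixes.

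**Figure D3:**
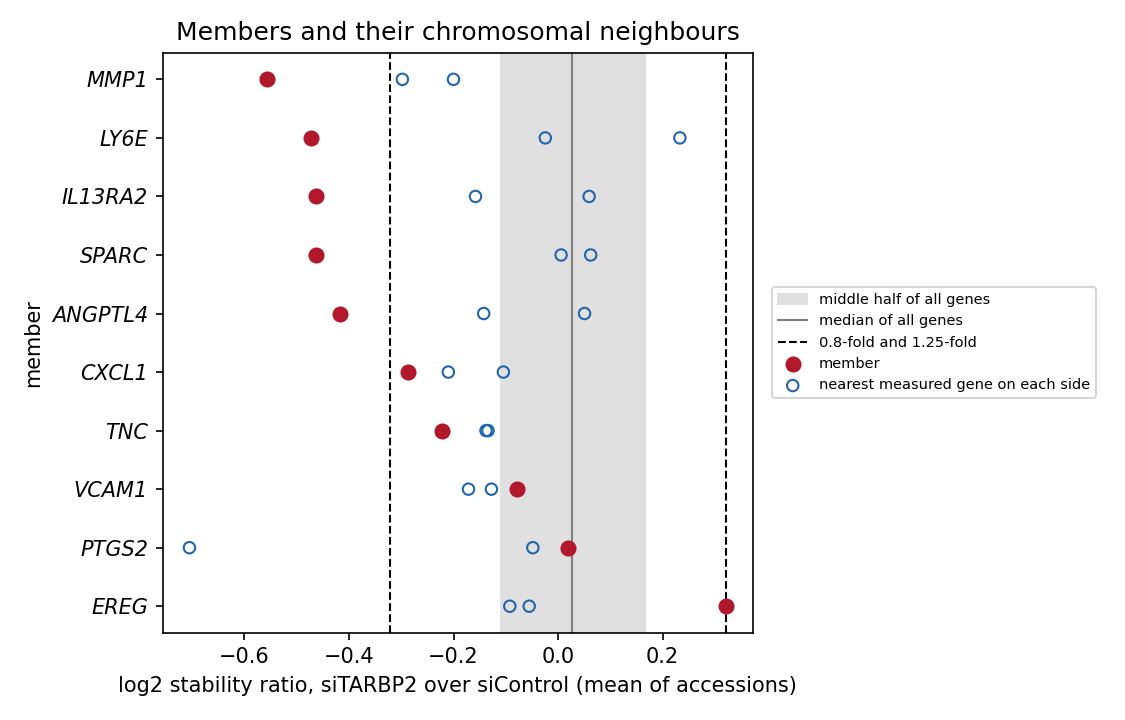
Mean log2 stability ratio of each of the 10 genes (filled points) and of the nearest named protein-coding gene on each side of it on the chromosome (open circles), from the authors' deposited table, with the quartile band of all genes shaded and dashed lines at the lower and upper limits. Among the 20 neighbours only PLA2G4A, beside PTGS2, lies left of the lower dashed line.

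Other genes that are commonly placed with these in lung metastasis did not, as a list, stand on the low side. Over 12 of them (MMP2, ID1, FSCN1, LTBP1, KYNU, MAN1A1, ROBO1, NEDD9, PLAAT4, KRT81, ADIRF and CXCR4) the median log2 ratio was 0.027, beside 0.026 over all genes, and 0 of the 12 gene means passed either limit in the authors' deposited table. Of all named genes, 8.76% were above the upper limit and 5.39% below the lower limit in the authors' deposited table. The 2 accessions of CXCR4 had log2 ratios of -0.37, below the lower limit, and 0.22 in the authors' deposited table. CXCR4 was picked for mention after its values were seen. Among those farthest from 0, LTBP1, which binds latent TGF-beta, had 0.865-fold, KYNU, the kynureninase of tryptophan breakdown, 0.874-fold, and PLAAT4, a retinoid-induced phospholipase, 0.893-fold in the authors' deposited table. No test set these 12 genes against the 10 members. Both sets were chosen with earlier results of these data known, so their choice partly fixes the contrast.

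The partners and relatives of each member were read the same way, as counts and medians. Each list's counts past a limit are to be read beside the shares of all named genes. Those shares were 8.76% above the upper limit and 5.39% below the lower limit in the authors' deposited table. The list around MMP1 held proteases and their inhibitors, and also BSG and F2R, which are neither. It had a median log2 ratio of 0.11 over 12 genes, with 2 above the upper limit and 2 below the lower limit in the authors' deposited table. Above were MMP14, the membrane-bound activator of MMP2, at 1.29-fold and the neutrophil collagenase MMP8 at 1.33-fold in the authors' deposited table. Below were TIMP4, a metalloproteinase inhibitor, at 0.640-fold and the collagenase MMP13 at 0.789-fold in the authors' deposited table. MMP13 was picked for mention after its value was seen.

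Each of the 7 measured relatives of SPARC had a higher ratio than SPARC, an order that the choice of members partly fixes. Over these 7 the median log2 ratio was 0.099, with 3 above the upper limit and 0 below the lower limit in the authors' deposited table. These were the testican genes SPOCK3 at 1.40-fold and SPOCK1 at 1.37-fold, and FSTL1, a secreted follistatin-like glycoprotein, with a log2 ratio of 0.32, just past that limit, in the authors' deposited table. Tenascins and tenascin receptors had a median of 0.11 over 10 genes, with 1 above the upper limit and 0 below the lower limit in the authors' deposited table. That gene was ITGB3, the beta-3 integrin chain, at 1.34-fold, followed by the syndecan SDC4 at 1.21-fold and the tenascin TNXB at 1.18-fold as the mean of 2 accessions, in the authors' deposited table. The angiopoietin-like family with its lipase targets had a median of -0.021 over 7 genes, with 0 above the upper limit and 1 below the lower limit in the authors' deposited table. That gene was ANGPTL2 at 0.675-fold, while lipoprotein lipase (LPL), which ANGPTL4 inhibits, stood at 1.13-fold and ANGPTL6 at 1.09-fold in the authors' deposited table.

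Around CXCL1, ligands and receptors of the same system were mixed. Over 8 genes the median log2 ratio was 0.20, with 2 above the upper limit and 1 below the lower limit in the authors' deposited table. CXCL8, interleukin-8, which acts on the same receptor, had the low ratio, 0.756-fold in the authors' deposited table. CXCL3, a close relative of CXCL1, had a log2 ratio of 0.32, just past the upper limit, and the receptor CXCR1 had 1.29-fold, in the authors' deposited table. CXCL1, CXCL2 and CXCL3 have similar sequences, so a probe for one may also report another, and whether this touched the listed ratios was not tested. The EGF family around EREG had a median of -0.065 over 10 genes with 0 past either limit in the authors' deposited table. Its farthest members from 0 were the ligands HBEGF at 1.20-fold and BTC at 1.19-fold, and the receptor ERBB2 at 0.871-fold in the authors' deposited table. EREG was therefore higher than each of these 10 relatives in the authors' deposited table, an order that the choice of members partly fixes.

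The prostaglandin pathway around PTGS2 had a median of 0.11 over 13 genes, with 1 above the upper limit and 2 below the lower limit in the authors' deposited table. Besides PLA2G4A, the prostaglandin E2 receptor PTGER2 was below, at 0.778-fold, and the prostaglandin D synthase HPGDS was above, at 1.32-fold, in the authors' deposited table. VCAM1's partners and sister adhesion molecules had a median of -0.090 over 10 genes, with 0 above the upper limit and 3 below the lower limit in the authors' deposited table. These were ITGB7, an integrin chain that pairs with alpha-4 to bind VCAM1, at 0.783-fold, ICAM1 at 0.784-fold and ICAM2 at 0.797-fold, both leukocyte adhesion molecules, in the authors' deposited table. ITGB1, the other integrin chain that pairs with alpha-4, lay at the opposite end, at 1.247-fold as the mean of 3 accessions, just short of the upper limit, in the authors' deposited table. The ITGB1 accessions NM_002211, NM_033668 and NM_133376 had 0.11, 0.32 and 0.53 log2 units in the authors' deposited table, which calls only NM_133376 stabilized. ITGB1 was picked for mention after its value was seen. ICAM1, which is induced by the same inflammatory signals as VCAM1, was lower than either VCAM1 accession in the authors' deposited table.

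Receptors and ligands of interleukin-13 and interleukin-4 had a median of -0.082 over 6 genes with 0 past either limit in the authors' deposited table. IL13RA1, the signalling receptor chain for interleukin-13, stood at 0.875-fold, IL4R at 1.23-fold and the shared chain IL2RG at 0.924-fold in the authors' deposited table. IL13RA2 was thus the lowest receptor chain of this group, an order that the choice of members partly fixes. The LY6 and uPAR family had a median of -0.0044 over 13 genes, with 0 above the upper limit and 1 below the lower limit in the authors' deposited table. That gene was LY6G6C at 0.789-fold, while LY6G6D had 1.23-fold and LY6G5B 1.20-fold in the authors' deposited table. A list of RNA-binding proteins, not all of them binders of AU-rich elements, had a median of 0.026 over 11 genes. Of these, 2 were above the upper limit and 1 below the lower limit in the authors' deposited table. Above were ZC3H12A (regnase-1), an endonuclease for inflammatory messages, at 1.36-fold and the decay factor ZFP36L2 at 1.35-fold, and below was RC3H1 (roquin-1) at 0.632-fold in the authors' deposited table.

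**Figure D4:**
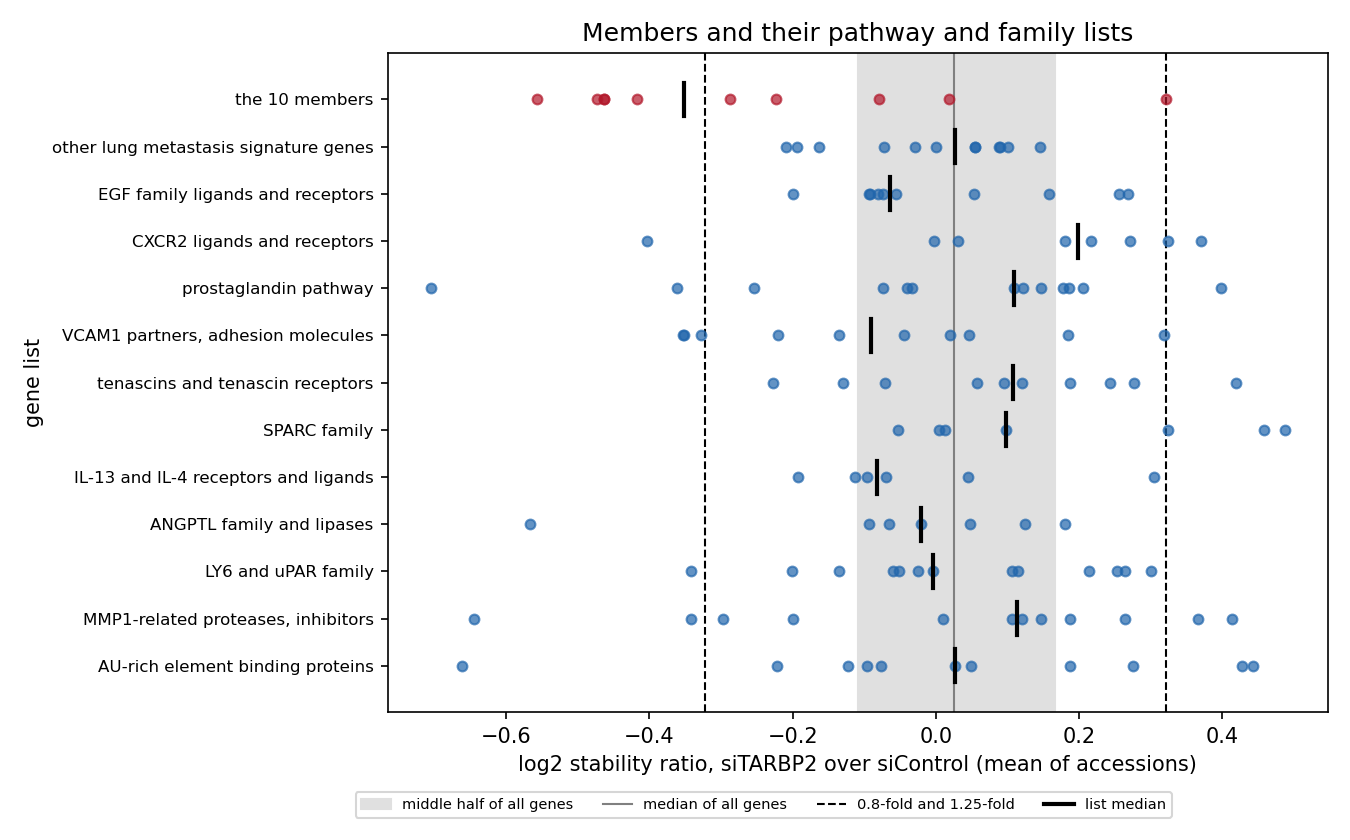
Mean log2 stability ratio of each gene (points) and the list median (black bar) for the 10 genes, in the top row, and for 12 lists of pathway partners and relatives, from the authors' deposited table; the shaded band spans the quartiles of all genes and dashed lines mark the lower and upper limits. The 10 genes have the lowest median, -0.35, which their choice partly fixes, and the medians of the other lists lie between -0.090 and 0.20.

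Over the 12 lists together, 119 genes had a value. Of these, 11 lay above the upper limit and 11 below the lower limit, beside 8.76% and 5.39% of all named genes, in the authors' deposited table. The median of the 119 genes was 0.031 on the log2 scale in the authors' deposited table. Each list's counts are small and without replicates, and no list is called different from genes at large.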

How the data were processed

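MDA-LM2 total RNA was measured on Illumina BeadChips, in 4 groups of 2 arrays taken from the sample titles. The authors deposited a table of log2 ratios of stability, siTARBP2 over siControl, with 1 class (background or stabilized) per accession, per the file headers. The sources used here do not say how replicates were combined. The authors deposited the intensity of each probe, not normalized, and its detection p-value on each array, per the file headers. The submitters' processing notes name lumi, with no version or role.

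Accessions were matched without version to a RefSeq gene table for GRCh38.p14, used for names and neighbours: 22408 of 39745 matched 1 symbol, giving 19465 genes. A gene's value was the mean of its accessions. Limits were log2 ratios of 0.322 and -0.322, and tables were handled in pandas 2.3.3. No test was run on members. The members and 12 lists were chosen with earlier results of these data known; from each list the 3 genes farthest from 0 were named, plus any further gene past a limit where its count needed it.

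Background correction and quantile normalization used neqc (limma 3.58.1 in R 4.3.3, offset 16), keeping probes with a detection p-value under 0.01 in at least 2 arrays. Standard errors came from a linear model with 1 coefficient per group and 4 residual degrees of freedom; the script was checked on simulated arrays. Quantile normalization makes each change relative to other transcripts. The number of arrays limits the precision. No 2 arrays shared more than 0.38% of signals, so none was a duplicate. Array contrasts planned for the members were not run, because probes carry no gene names.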

Additional observations from a re-analysis of the deposited data

How the results depend on the processing

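The limit decided the counts: at 1.5-fold and its inverse 0 of the 10 genes were below (0.529% of all genes), against 5 at the lower limit, and at 1.1-fold 1 of the 10, EREG, was above (29.4% of all genes), against 0 at the upper limit, in the authors' deposited table. With accessions counted singly, with ratios centred on the median of all accessions (0.012) and at the inverse of 1.1-fold, the count below stayed within 1.5 times 5. At the inverse of 1.1-fold the count was 7 of the 10 genes, in the authors' deposited table. The share of all genes below was then 21%, against 5.39% at the lower limit, in the authors' deposited table. The median of the 10 genes stayed below 0 when accessions were counted singly and when ratios were centred. Taking the median of a gene's accessions, the accession farthest from 0 or only NM_ accessions left the direction of all 10 genes as it was, and 8 of them have a single accession, so only ANGPTL4 and VCAM1 could move. On the arrays, the median standard error of the stability difference was 0.107 to 0.150 under other corrections, scalings and filters on dim probes, and 0.138 to 0.146 without any 1 array. With a replicate block within each arm it was 0.124, against 0.134 without the block. No paired analysis was possible for the members because their deposited ratios are single values with no samples. The planned counts of called probes and the planned slide block were not run, since no probe can be assigned to a member and no slide is given in the sources used here.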
